A study of Mus musculus with 12 samples.

Results

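The genes of the aryl hydrocarbon receptor pathway were followed in whole lung RNA of mice kept in room air or exposed to cigarette smoke. All probes that the array files name for Ahr, Arnt, Ahrr, Cyp1a1, Cyp1a2, Cyp1b1, Tiparp, Aldh3a1 and Nqo1 were taken. These were 14 of the array's 41174 probes, for 9 of its 27745 named genes and transcripts. Lungs of 12 mice were measured on 1 single-colour array each: 4 of wild type (WT) that breathed room air, 4 of WT that breathed cigarette smoke, and 4 Rora mutants that breathed cigarette smoke. Per the labels the mice of all groups were male, of the C57Bl/6 background and aged 12 weeks. Smoke exposure ran on 5 days a week for 4 months, so in the smoke groups that age must precede the age at sampling. For the room air mice no duration is given, so whether all groups were sampled at the same age is not known. The labels call the 4 arrays of a group biological replicates. The Rora allele is not named in them. Without unexposed mutants among the arrays used here, an effect of genotype alone cannot be told apart from an effect of genotype on the response to smoke. Only whole lung was measured, and in such bulk RNA fewer cells of a type and less RNA per cell cannot be told apart.

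The aryl hydrocarbon receptor, encoded by Ahr, is a ligand-activated transcription factor that waits in the cytosol with chaperones. After binding ligands such as the polycyclic aromatic hydrocarbons of smoke, it enters the nucleus, pairs with the protein encoded by Arnt and binds response elements beside its target genes. The targets include cytochrome P450 enzymes that oxidise the ligands, conjugating and detoxifying enzymes, and the feedback inhibitors Ahrr and Tiparp.

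Levels are log2 units above or below the 75th percentile of processed signal on the same array, so a value of 0 is that percentile. A gene with several probes was called by its brightest kept probe. Of the 14 probes, 12 passed the filter on dim probes and stood for 8 genes; neither Cyp1a2 probe passed. Differences are given in log2 units with their standard error (SE) from limma. The threshold for a gene to pass was an adjusted p of 0.05 (Benjamini-Hochberg, over the 30189 kept probes). A two-sided exact permutation test of 4 arrays against 4 was run on each of the 14 probes in each of the 3 comparisons, 42 tests in all and unadjusted, and cannot give a p below 0.0286.

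Between 70.1% and 74.8% of the spots of an array were well above background, and the 75th percentile intensity lay between 785.2 and 1313. The Rora probe read 1.08 to 1.16 in WT room air, 1.15 to 1.23 in WT smoke and -1.14 to -0.92 in mutant smoke, so the mutant arrays bore out their label (mutant against WT smoke -2.20 ± 0.06, limma adjusted p = 1.21e-09). The room air arrays went against theirs. All mice are labelled male, yet Xist, which is transcribed from the inactive X chromosome of females, read 3.97 to 4.13 in room air and at most -3.18 in both smoke groups. Signals of Ddx3y, Kdm5d and Uty, which lie on the Y chromosome, rose well above background on all arrays of both smoke groups and on none of the 4 in room air. Another such gene, Eif2s3y, did so on 2 of 4 room air arrays, at levels of -8.80 to -5.59 in that group against 1.09 to 1.57 in both smoke groups. Both comparisons with the group labelled WT room air therefore also compare animals that differ in these sex-linked genes, and smoke and this difference cannot be told apart there. Both smoke groups gave the pattern of male mice. Markers of lung cell types (alveolar, airway, endothelial, smooth muscle, fibroblast and leukocyte lists) were all detected. Of the lists for other tissues, 1 of 5 hepatocyte markers and 5 of 5 cardiac muscle markers were detected.

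Cigarette smoke went with large rises of Cyp1b1, Ahrr and Cyp1a1 and smaller rises of Nqo1 and Aldh3a1, while the genes of the receptor and its partner, Ahr and Arnt, did not pass. In WT smoke against WT room air 5 of the 8 genes tested passed as higher and 0 as lower, against 1.98% of all kept probes higher and 2.09% lower. At an unadjusted p under 0.05 there were 7 higher, with Ahr and Tiparp added, and 0 lower, against 7.67% and 9.89% of all kept probes. The median difference of the 8 genes was 2.12, against -0.01 over all kept probes. Cyp1b1 stood at rank 7, Ahrr at 8, Cyp1a1 at 10, Nqo1 at 17 and Aldh3a1 at 23 of 30189 probes ordered from the largest rise.

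**Figure D1:**
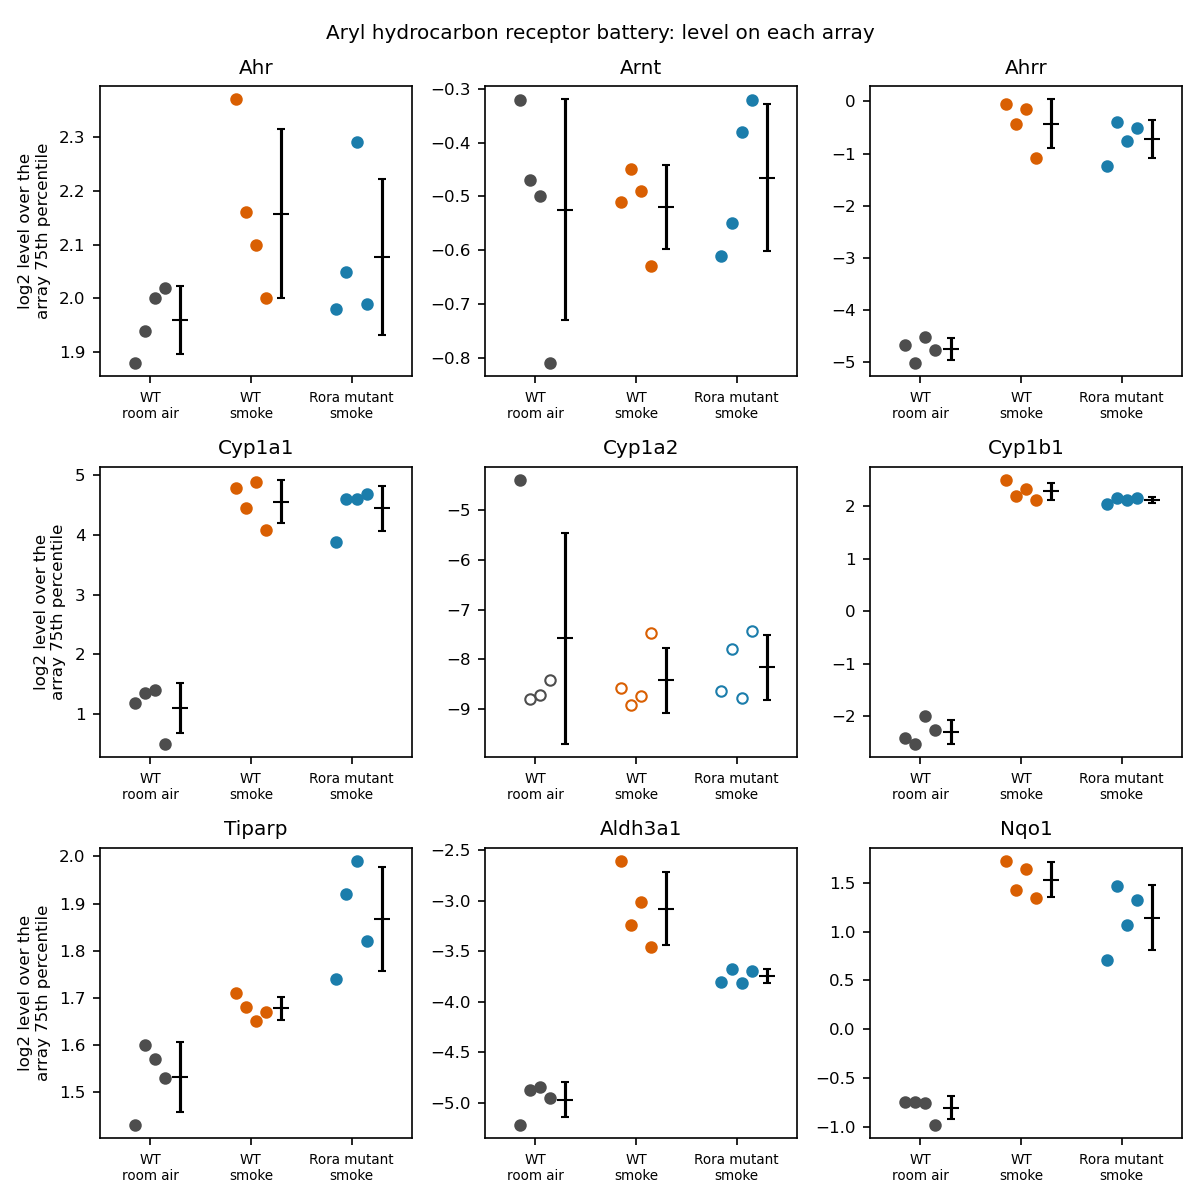
Level of each of the 9 genes on each of the 12 arrays (brightest probe; vertical axis log2 level over the array's 75th percentile, scaled per panel), with group mean and SD (n = 4) as bars; filled points are well above background and open points are not. The smoke arrays of Ahrr, Cyp1a1, Cyp1b1, Aldh3a1, Nqo1 and, by a small step, Tiparp all lie above the room air arrays. Of all kept probes 5.71% lay apart in this way in WT smoke and 8.5% in mutant smoke. Cyp1a2 was well above background on 1 array.

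The promoter letters of the raised genes are shown because the receptor and Arnt bind a short core, GCGTG, which reads CACGC on the other strand. The 250 bases before the annotated start were read from the RefSeq promoter table of build GRCm38.p6, which held 7 of the 9 genes by symbol, all but Ahr and Aldh3a1. In the lines that follow, written 5′ to 3′ on the strand of the gene, capitals mark GCGTG or CACGC. They cover chr13:74292332-74292581 (minus strand) for Ahrr, chr9:57697363-57697612 (plus) for Cyp1a1, chr17:79715062-79715311 (minus) for Cyp1b1 and chr8:107403206-107403455 (minus) for Nqo1.
Ahrr: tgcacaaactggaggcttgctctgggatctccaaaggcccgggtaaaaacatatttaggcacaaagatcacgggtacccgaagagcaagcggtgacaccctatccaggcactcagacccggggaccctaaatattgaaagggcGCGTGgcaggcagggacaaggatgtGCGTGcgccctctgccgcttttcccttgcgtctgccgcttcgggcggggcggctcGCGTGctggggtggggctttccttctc
Cyp1a1: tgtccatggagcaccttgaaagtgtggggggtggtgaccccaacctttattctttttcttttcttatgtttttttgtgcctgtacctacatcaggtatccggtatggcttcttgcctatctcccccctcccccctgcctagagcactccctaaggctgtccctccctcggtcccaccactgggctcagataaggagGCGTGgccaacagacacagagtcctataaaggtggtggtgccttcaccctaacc
Cyp1b1: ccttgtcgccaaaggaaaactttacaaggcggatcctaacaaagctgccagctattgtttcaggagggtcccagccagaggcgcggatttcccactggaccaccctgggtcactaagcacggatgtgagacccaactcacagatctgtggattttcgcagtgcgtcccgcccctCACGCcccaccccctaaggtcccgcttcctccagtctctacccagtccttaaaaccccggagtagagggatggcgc
Nqo1: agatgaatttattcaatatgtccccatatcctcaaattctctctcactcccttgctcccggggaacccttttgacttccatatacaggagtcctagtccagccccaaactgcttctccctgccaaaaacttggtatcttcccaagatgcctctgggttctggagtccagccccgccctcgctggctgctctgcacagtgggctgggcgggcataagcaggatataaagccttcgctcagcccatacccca
Ahrr held 3 matches, whose first letters lay 107, 82 and 27 bases before the start. The nearest of them also completed the longer form TNGCGTG, which reads CACGCNA on the other strand, contains the core and began at 29 bases. Cyp1a1 held 1 match at 54 bases, and Cyp1b1 held 1 at 76 bases on the other strand. Tiparp held 1 at 170 bases on the other strand and Arnt 1 at 29 bases, although neither gene passed in WT smoke. Nqo1 and Cyp1a2 held none. Among all 32851 promoters of this length 28.2% held the core and 4.1% the longer form, so a single core match is common. The core of the antioxidant response element, TGACNNNGC, which reads GCNNNGTCA on the other strand, was found in Arnt alone of the 7, with 2 matches, and in 10.2% of all promoters. A match is a run of letters and not a measured binding site, and these windows do not reach more distant enhancers.

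Ahr encodes the receptor itself. The Ahr probe (chr12:36083324-36083383 on mm8, minus strand, printed 10 times on the array) read 1.88, 1.94, 2.00 and 2.02 on room air replicates 1 to 4, 2.37, 2.16, 2.10 and 2.00 in WT smoke, and 1.98, 2.05, 2.29 and 1.99 in mutant smoke. The highest array was WT smoke replicate 1, and the groups overlapped. Ahr differed by 0.20 ± 0.09 between WT smoke and room air (limma adjusted p = 0.266), with a 95% interval of 0.01 to 0.39, so a rise of more than 1.31-fold lay outside that interval. Mutant smoke differed from WT smoke by -0.08 ± 0.09 (adjusted p = 0.661; 95% interval -0.28 to 0.11), and from room air by 0.12 ± 0.09 (adjusted p = 0.405).

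Arnt encodes the nuclear partner of the receptor and is shared with the hypoxia-inducible factors. Its brightest probe (A_52_P324866, chr3:95582414-95582473 on mm8) read -0.32, -0.47, -0.50 and -0.81 in room air, -0.51, -0.45, -0.49 and -0.63 in WT smoke, and -0.61, -0.55, -0.38 and -0.32 in mutant smoke. All groups overlapped. This probe differed by 0.00 ± 0.10 between WT smoke and room air (limma adjusted p = 1.00), and by 0.06 ± 0.10 between mutant and WT smoke (adjusted p = 0.809).

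The 4 Arnt probes did not behave alike in the mutants. A_52_P84015 (chr3:95570545-95570604 on mm8) read -2.14, -2.13, -2.53 and -2.41 in room air, -2.27, -2.20, -2.27 and -2.38 in WT smoke, and -2.77, -2.48, -3.20 and -3.18 in mutant smoke. Every mutant array was below every WT smoke array, as on 7.27% of all kept probes. Replicates 3 and 4 were the lowest, and replicate 2 overlapped room air. The probe was lower in mutant smoke by -0.63 ± 0.15 against WT smoke (limma adjusted p = 0.0339) and by -0.61 ± 0.15 against room air (adjusted p = 0.019).

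A_52_P577150 (chr3:95576047-95576473) read -3.08 to -3.38 in room air, -3.24 to -3.49 in WT smoke, and -3.48, -3.47, -3.83 and -3.84 in mutant smoke. Again mutant replicates 3 and 4, which shared a slide, were the lowest. This probe was lower in mutant smoke against room air (-0.40 ± 0.11, limma adjusted p = 0.0266) and did not pass against WT smoke (-0.29 ± 0.11, adjusted p = 0.138). The dimmest probe, A_51_P494196 (chr3:95580915-95580975), spanned -3.65 to -3.35 over all 12 arrays and passed in no comparison. Against room air, the call of A_52_P577150 was lost without room air replicate 1 or 4 or mutant replicate 3 or 4 (adjusted p 0.0624 to 0.0795), and also with quantile normalization (-0.31, adjusted p = 0.0646), the authors' deposited value table (-0.32, 0.0652), only the 8 arrays compared (0.0582) and normexp correction; it held in 12 of 20 alternative settings. That of A_52_P84015 held in 15 of 20 and was lost without room air replicate 1 or 2 or mutant replicate 4 (adjusted p 0.0529 to 0.0579), with only the 8 arrays compared (0.0522) and with normexp correction (-0.17, adjusted p = 0.95).

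The call of A_52_P84015 between the smoke groups held in 10 of 20 alternative settings. That call was lost without any 1 of the 4 WT smoke arrays (adjusted p 0.0523 to 0.082) and without mutant replicate 1, 3 or 4 (0.0524, 0.0708 and 0.097). A block for the slide gave -0.54 (adjusted p = 0.0417), and slides 1 to 3 taken singly gave -0.50, -0.20 and -0.92.

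**Figure D2:**
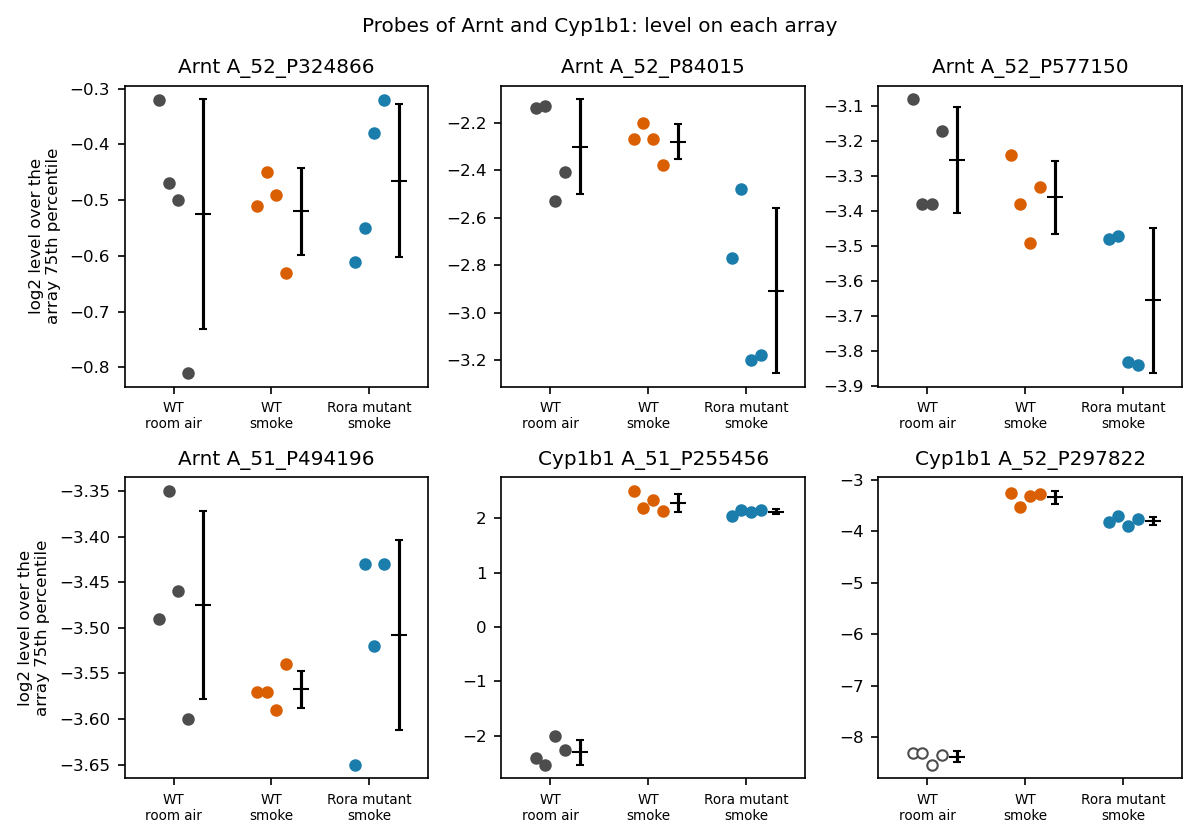
Levels of the 4 Arnt probes and both Cyp1b1 probes on each array (vertical axis log2 level over the array's 75th percentile, scaled per panel; bars are group mean and SD, n = 4; open points are not well above background). Arnt A_52_P84015 and A_52_P577150 are lowest in mutant smoke replicates 3 and 4, A_52_P324866 and A_51_P494196 overlap in all groups, and both Cyp1b1 probes separate room air from smoke.

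The feedback inhibitors differed in size of change. Ahrr encodes the receptor's repressor, which competes for Arnt and for the response element. Its probe (chr13:74677120-74677166 on mm8, minus strand) read -4.68, -5.02, -4.51 and -4.77 in room air, -0.04, -0.43, -0.15 and -1.09 in WT smoke, and -1.23, -0.40, -0.76 and -0.51 in mutant smoke. The smoke arrays of both genotypes lay far above room air and overlapped each other. Groups apart and above room air were found for 5.71% of all kept probes in WT smoke and 8.5% in mutant smoke. Ahrr rose 20.0-fold in WT smoke (4.32 ± 0.23, 95% interval 3.81 to 4.83, limma adjusted p = 1.09e-06; exact permutation p = 0.0286). It was higher by 4.02 ± 0.23 in mutant smoke against room air (adjusted p = 1.48e-06). Mutant against WT smoke gave -0.30 ± 0.23 (adjusted p = 0.516), with a 95% interval of -0.80 to 0.21, and within the 3 slides -1.19, 0.36 and -0.49. Normexp background correction adds 50 to each signal, which compresses differences of dim probes. With it the rises of Ahrr were 2.18 ± 0.45 (limma adjusted p = 0.161) and 1.99 ± 0.45 (adjusted p = 0.0926). The SE was thus larger than in the main setting, and the reason was not tested.

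Tiparp encodes an ADP-ribosyltransferase that modifies the receptor and lowers its activity. Its probe (chr3:65642756-65642815 on mm8) read 1.43, 1.60, 1.57 and 1.53 in room air, 1.71, 1.68, 1.65 and 1.67 in WT smoke, and 1.74, 1.92, 1.99 and 1.82 in mutant smoke. The groups stood in that order with no overlap between any of them, although the steps were small. Groups that do not overlap were found for 5.71% of all kept probes as higher in WT smoke than room air, for 5.96% as higher in mutant than WT smoke, and for 8.5% as higher in mutant smoke than room air. The step from room air to WT smoke was 0.15 ± 0.06, or 1.11-fold (limma adjusted p = 0.246; exact permutation p = 0.0286), and it did not pass. Nor did the step from WT to mutant smoke, at 0.19 ± 0.06, or 1.14-fold (adjusted p = 0.103; 95% interval 0.05 to 0.32). Their sum, mutant smoke against room air, passed at 0.33 ± 0.06, or 1.26-fold (adjusted p = 4.4e-03), though with normexp correction it was 0.28 (adjusted p = 0.407).

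The cytochrome P450 genes held the brightest and the dimmest results. Cyp1a1 encodes the classical inducible enzyme that oxidises polycyclic aromatic hydrocarbons. Its probe (chr9:57501865-57501924 on mm8) read 1.18, 1.34, 1.39 and 0.49 in room air, 4.79, 4.46, 4.89 and 4.09 in WT smoke, and 3.88, 4.61, 4.60 and 4.69 in mutant smoke. Every smoke array was above every room air array, and the smoke groups overlapped. Of all kept probes 5.71% were apart in this way in WT smoke and 8.5% in mutant smoke. Cyp1a1 rose 11.0-fold in WT smoke (95% interval 7.59 to 15.9; 3.46 ± 0.24, limma adjusted p = 1.26e-05) and was 10.2-fold higher in mutant smoke than in room air (95% interval 7.02 to 14.7; adjusted p = 9.78e-06).

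Between the smoke groups Cyp1a1 differed by -0.11 ± 0.24 (limma adjusted p = 0.85). The 95% interval, -0.65 to 0.42, spans 0.638-fold to 1.34-fold, so a moderate change in either direction was not detectable with these arrays. Within the slides the difference was -0.92, 0.33 and -0.24, and without mutant replicate 1, the lowest mutant array, it was 0.08. The Cyp1a1 probe lies on chromosome 9, 11.7 Mb from the Rora probe (mm8), so it shares a chromosome with the mutated gene.

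Cyp1b1 encodes an extrahepatic P450 that activates polycyclic hydrocarbons. Its brighter probe (A_51_P255456, chr17:79615533-79615592 on mm8, minus strand) read -2.41, -2.53, -2.00 and -2.27 in room air, 2.50, 2.19, 2.33 and 2.13 in WT smoke, and 2.05, 2.16, 2.12 and 2.16 in mutant smoke. Room air stood apart below WT smoke, as on 5.71% of all kept probes, and below mutant smoke, as on 8.5%. The smoke groups overlapped. Cyp1b1 rose 24.1-fold in WT smoke (95% interval 20.4 to 28.5; 4.59 ± 0.11, limma adjusted p = 4.05e-10) and was 21.5-fold higher in mutant smoke than in room air (95% interval 18.2 to 25.4; adjusted p = 3.54e-10). The smoke groups differed by -0.17 ± 0.11 on this probe (adjusted p = 0.439; 95% interval -0.41 to 0.08).

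The second Cyp1b1 probe (A_52_P297822, chr17:79609904-79609963) gave a signal well above background on all 8 smoke arrays and on 0 of the 4 from room air. It read -3.26, -3.52, -3.31 and -3.27 in WT smoke and -3.82, -3.71, -3.89 and -3.77 in mutant smoke. Here the smoke groups did not overlap, as on 7.27% of all kept probes in that direction, and the probe was lower in the mutants by -0.46 ± 0.08 (limma adjusted p = 7.2e-03). With normexp correction that difference was 0.26 (adjusted p = 0.778), where the median over all probes was 0.15. Set against the lowest signal well above background, the rise of this probe was at least 9.12-fold in WT smoke and at least 6.65-fold in mutant smoke. These bounds were not tested, and the probe passed the filter on dim probes through the smoke arrays alone. With normexp correction its log2 differences from room air were 0.58 (limma adjusted p = 0.879) and 0.84 (adjusted p = 0.95). The mean of both Cyp1b1 probes was lower in mutant than in WT smoke by -0.31 ± 0.07 (adjusted p = 0.0201), so the call for this gene depends on the probe.

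Cyp1a2, the neighbouring family member known mainly from liver, was not measurable. Its probe A_51_P450140 (chr9:57479193-57479842 on mm8, minus strand) was well above background on room air replicate 1 alone, at a processed intensity of 43.9, and the other 11 arrays gave 2.17 to 6.34. A_52_P595871 (chr9:57478390-57478449) was well above background on 0 of 12 arrays. Neither probe was tested in the main setting, and no smoke array gave a usable Cyp1a2 level.

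Both detoxifying enzymes rose with smoke. Nqo1 encodes a quinone reductase that is driven by the receptor and also by the antioxidant regulator encoded by Nfe2l2. Its probe (chr8:110277669-110277728 on mm8, minus strand) read -0.74, -0.74, -0.75 and -0.98 in room air, 1.72, 1.43, 1.64 and 1.34 in WT smoke, and 0.71, 1.47, 1.07 and 1.32 in mutant smoke. Smoke and room air did not overlap, as on 5.71% of all kept probes higher in WT smoke and 8.5% higher in mutant smoke. Mutant replicates 1 and 3 were the lowest smoke arrays. Nqo1 rose by 2.34 ± 0.15 in WT smoke, or 5.06-fold (limma adjusted p = 4.61e-06), and was 3.86-fold higher in mutant smoke than in room air (adjusted p = 1.31e-05). The mutants gave -0.39 ± 0.15 against WT smoke (adjusted p = 0.148; 95% interval -0.71 to -0.07), which did not pass, with -1.02, 0.08 and -0.44 within the slides.

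Aldh3a1 encodes an aldehyde dehydrogenase of airway and corneal epithelium that clears aldehydes from lipid peroxidation. Its probe (chr11:61031763-61032493 on mm8) read -5.22, -4.87, -4.84 and -4.95 in room air, -2.61, -3.24, -3.01 and -3.46 in WT smoke, and -3.80, -3.68, -3.81 and -3.70 in mutant smoke. The 3 groups did not overlap, with the mutants between room air and WT smoke. Of all kept probes 5.71% stood apart as higher in WT smoke than room air. The shares were 7.27% as lower in mutant than WT smoke and 8.5% as higher in mutant smoke than room air. Aldh3a1 rose 3.72-fold in WT smoke (95% interval 2.95 to 4.68; 1.89 ± 0.15, limma adjusted p = 3.82e-05) and was 2.33-fold higher in mutant smoke than in room air (95% interval 1.85 to 2.94; adjusted p = 4.45e-04). These are dim signals, and with normexp correction the rises were 0.35 ± 0.47 (limma adjusted p = 0.879) and 0.51 ± 0.47 (adjusted p = 0.95).

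Aldh3a1 was the 1 gene of the 8 that passed between the smoke groups by its brightest probe. In that comparison 1 of 8 passed as lower in the mutants and 0 as higher, against 3.75% of all kept probes lower and 2.07% higher. At an unadjusted p under 0.05 there were 2 lower, Aldh3a1 and Nqo1, and 1 higher, Tiparp, against 12.5% and 8.76% of all kept probes. The median difference of the 8 was -0.14, against 0.00 over all kept probes. Mutant smoke was below WT smoke by -0.67 ± 0.15 (limma adjusted p = 0.0276; exact permutation p = 0.0286), or 0.628-fold with a 95% interval of 0.498 to 0.791. The difference within the 3 slides was -1.20, -0.33 and -0.75. The adjusted p was 0.0635, 0.0557 and 0.0653 without mutant replicate 1, 3 or 4, and 0.0693 without WT smoke replicate 3, with differences of -0.66, -0.65, -0.69 and -0.65. With normexp correction the difference was 0.16 (limma adjusted p = 0.838), where the median over all probes was 0.15. The call held in 14 of 22 alternative settings.

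Cell type markers also differed between the smoke groups, where 2.07% of all kept probes passed as higher in the mutants and 3.75% as lower. Of 6 alveolar macrophage markers 5 were higher in mutant smoke, among them Siglecf (0.82 ± 0.08, limma adjusted p = 3.47e-04) and Marco (0.81 ± 0.21, adjusted p = 0.0435). Their summed level on the linear scale was 113 to 175 times the array's 75th percentile in mutant smoke, 83.3 to 96.7 in WT smoke and 82.7 to 89.2 in room air. Of 5 ciliated cell markers 1 was lower in the mutants (Tekt1, -0.34, adjusted p = 0.0351), and the list summed to 10.4 to 11.2 against 11.4 to 15.2. Of 5 club cell markers 1 was lower (Aldh1a1, -0.30 ± 0.08, adjusted p = 0.048), with sums of 845 to 963 against 863 to 1160. The fibroblast marker Pdgfra was higher (0.45 ± 0.08, limma adjusted p = 0.0118; 0.13 by its other probe) and the endothelial marker Kdr lower (-0.31 ± 0.08, adjusted p = 0.0406), with 1 call in each list. Cardiac muscle markers summed to 36.2 to 43.1 in mutant smoke, 23.5 to 31.9 in WT smoke and 29.1 to 41.1 in room air. Between the smoke groups 0 of 5 passed. At an unadjusted p under 0.05, 4 were higher in mutant than in WT smoke, against 8.76% of all kept probes. No marker of these lists was undetected, and their part in the differences of Aldh3a1, Cyp1b1 and Arnt was not tested. In WT smoke against room air the macrophage and club lists each held 1 marker higher and 1 lower, the alveolar type 2 list 2 lower, and the ciliated list none. Of all kept probes 1.98% were higher and 2.09% lower there. In mutant smoke against room air 6.06% of all kept probes were higher and 10.2% lower. There 5 of 6 macrophage markers were higher and 4 of 5 ciliated markers lower (room air sums of 13.9 to 15.2). The alveolar type 1 and fibroblast lists each held 1 marker higher, and the alveolar type 2, club, endothelial, fibroblast and neutrophil lists 1 lower each; their part in the rises against room air was not tested.

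In mutant smoke against room air 6 of 8 genes passed as higher, the 5 of WT smoke and Tiparp, and 0 as lower, against 6.06% of all kept probes higher and 10.2% lower; at an unadjusted p under 0.05 the counts were also 6 and 0, against 12.8% and 17.7%. This comparison shares its room air arrays with the comparison of WT smoke, so the sizes can only be set side by side. Ahrr rose by 4.02 in mutants and 4.32 in WT, Cyp1a1 by 3.34 and 3.46, and Cyp1b1 by 4.43 and 4.59. The rises of Nqo1 were 1.95 and 2.34, and those of Aldh3a1 1.22 and 1.89. Tests of these differences are those between the smoke groups given above, of which Aldh3a1 passed.

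**Figure D3:**
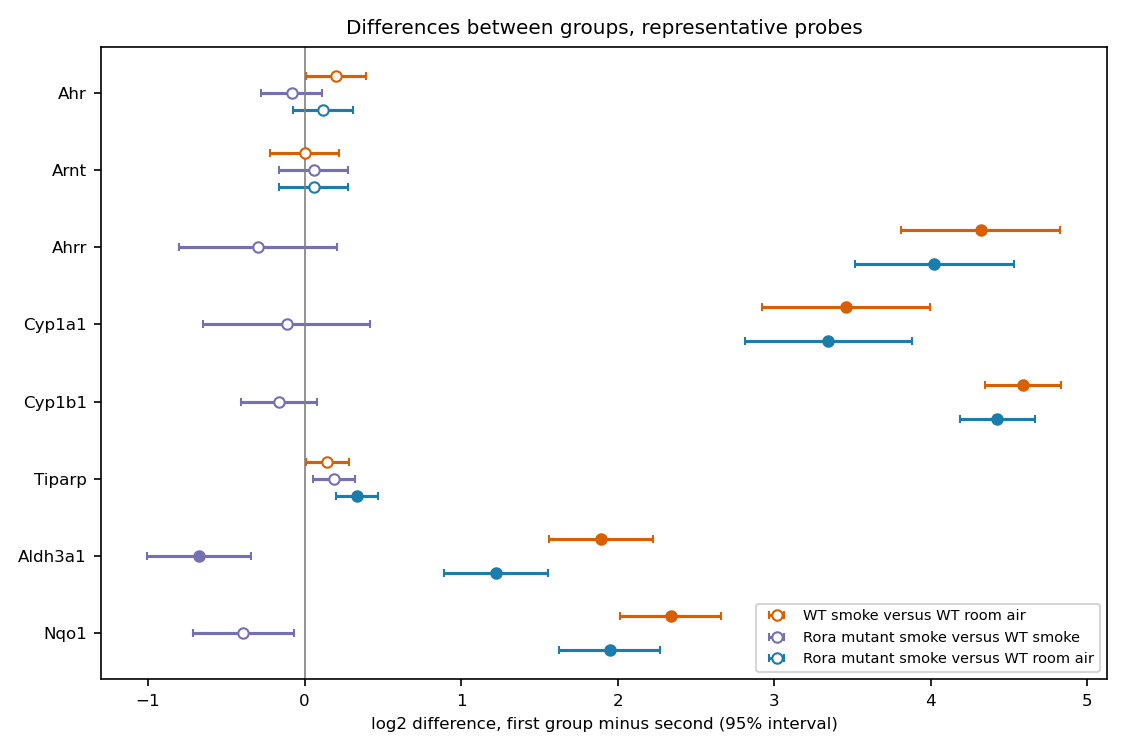
Differences in log2 units with 95% intervals for the brightest probe of each of the 8 genes tested, first group minus second; filled points passed at a limma adjusted p under 0.05 and open points did not. Ahrr, Cyp1a1, Cyp1b1, Nqo1 and Aldh3a1 are raised in both comparisons with room air, and between the smoke groups Aldh3a1 alone passed, at -0.67.

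Within a group the genes tended to move together from mouse to mouse, the raised ones and others. After each gene's group means were taken off, the 10 pairs among Ahrr, Cyp1a1, Cyp1b1, Aldh3a1 and Nqo1 all had a positive correlation over the 12 arrays, from 0.36 for Cyp1a1 with Cyp1b1 to 0.83 for Cyp1a1 with Nqo1. Ahrr correlated with Nqo1 at 0.80 and with Cyp1a1 at 0.71. Of the 28 pairs among all 8 genes tested 26 were positive, and pairs with a gene that did not rise in WT smoke reached like values, as 0.74 for Arnt with Cyp1a1, 0.67 for Ahr with Tiparp and 0.61 for Ahr with Aldh3a1. All 5 genes lay below their group means on WT smoke replicates 2 and 4 and on mutant smoke replicate 1. They lay above them on WT smoke replicates 1 and 3, mutant smoke replicates 2 and 4, and room air replicate 3. The genes share each array's RNA, hybridisation and scaling, and these correlations are descriptions without a test. The share of positive pairs among all kept probes was not measured, so such movement cannot be called particular to these genes.

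**Figure D4:**
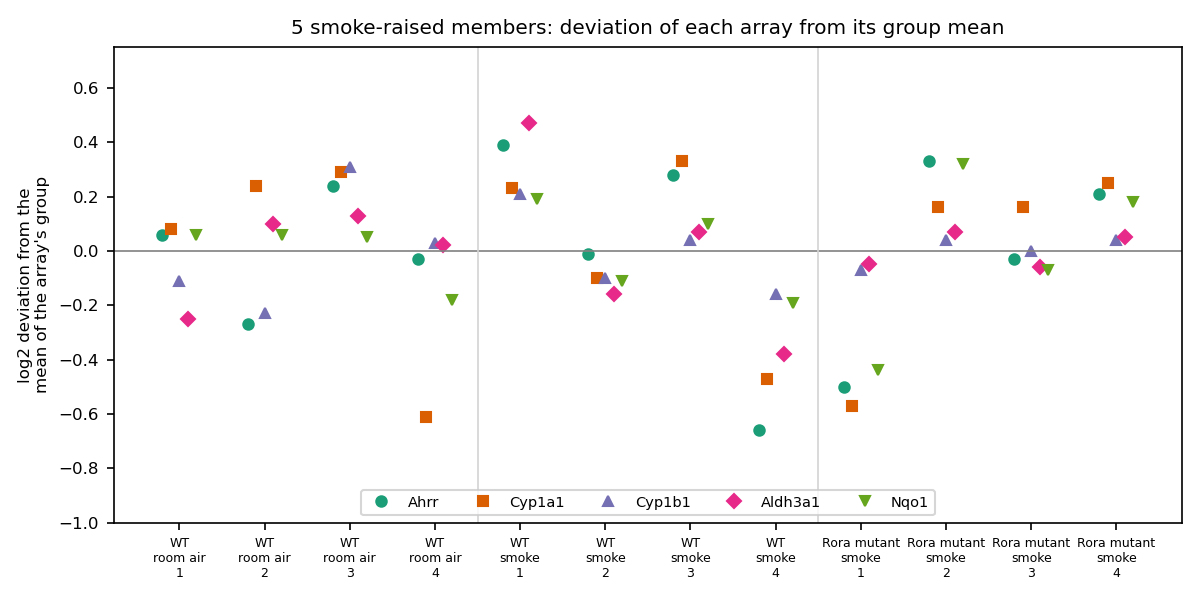
Deviation of each array from its group mean in log2 units for Ahrr, Cyp1a1, Cyp1b1, Aldh3a1 and Nqo1 (brightest probe of each; 4 arrays per group, vertical lines part the groups). All 5 genes lie below their group means on WT smoke replicates 2 and 4 and mutant smoke replicate 1.

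Outside the 9 genes, those whose level followed Cyp1a1 most closely were Ces1h, Edn1, Akr1b8, Cbr3, Srxn1, Ces1g, Ces1c and Acpp, the 8 highest of 14305 genes well above background on all arrays. Pearson's r over the 12 arrays ran from 0.972 for Acpp to 0.983 for Edn1 and Ces1h. Over the same arrays Ahrr gave 0.989, Nqo1 0.985, Cyp1b1 0.982 and Aldh3a1 0.921. The arrays fall into a room air and a smoke cluster, so these values mostly restate the step between them. With group means taken off, r was 0.72 for Edn1, which encodes the vasoconstrictor endothelin, 0.63 for the carbonyl reductase gene Cbr3, and 0.52 to 0.61 for the other 6. Edn1 rose by 1.26 ± 0.12 in WT smoke (limma adjusted p = 1.7e-04), and Akr1b8, an aldo-keto reductase gene, by 0.96 ± 0.07 (adjusted p = 1.26e-05). Between the smoke groups Cbr3 was lower in the mutants (-0.34 ± 0.08, adjusted p = 0.0333), a call that held in 11 of 21 alternative settings, and the other 7 did not pass.

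In WT smoke against room air no other pathway gene, by its brightest kept probe, changed as much as the 5 raised genes. Those 5 were singled out because they passed there, so this contrast is partly built in. Between the smoke groups it did not hold. Of the 6 genes for the cytosolic complex, such as the chaperone gene Hsp90ab1, none passed in any comparison by its brightest probe. The median was -0.04 in WT smoke against room air (Hsp90ab1 -0.14 ± 0.08, limma adjusted p = 0.419). The other Hsp90ab1 probe gave -0.26 there. In mutant smoke against room air that probe gave -0.42 and the brightest -0.09. At an unadjusted p under 0.05 the complex gave 0 genes in WT smoke and 1, higher in mutants, between the smoke groups. In the latter comparison 8.76% of all kept probes were higher by that rule. Of 13 tested partner factors and coregulators none passed in WT smoke or between the smoke groups. At an unadjusted p under 0.05 each of these comparisons gave 1 higher and 1 lower. The shares of all kept probes were 7.67% and 9.89% in WT smoke, and 8.76% and 12.5% between the smoke groups. In mutant smoke against room air 3 of the 13 were lower, against 10.2% of all kept probes. They were Esr1 (-0.43 ± 0.11, limma adjusted p = 0.022), Ep300 (-0.28 ± 0.08, adjusted p = 0.0291) and Med1 (-0.28 ± 0.08, adjusted p = 0.0371). Esr1 encodes an oestrogen receptor, Ep300 a histone acetyltransferase and Med1 a Mediator subunit, and other probes of Ep300 and Med1 gave differences of -0.92 to 0.09 and -0.04 to 0.01. The calls of Esr1, Ep300 and Med1 held in 13, 13 and 11 of 21 alternative settings, and normexp correction gave 0.04 for Esr1.

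Among other reported targets 7 of 18 tested rose in WT smoke and 0 fell, against 1.98% and 2.09% of all kept probes. At an unadjusted p under 0.05 the counts were 10 and 0, against 7.67% and 9.89%. The median of the 18 was 0.30. Ptgs2, the inducible cyclooxygenase gene, rose by 1.24 ± 0.14 (limma adjusted p = 5.04e-04), and Serpinb2, a plasminogen activator inhibitor gene, by 1.13 ± 0.09 (adjusted p = 4e-05). The conjugating enzyme genes Gsta1 and Ugt1a6b rose by 0.73 ± 0.09 (adjusted p = 7.55e-04) and 0.68 ± 0.08 (adjusted p = 8.85e-04), and the retinal-oxidising Aldh1a3 by 0.44 ± 0.08 (adjusted p = 8.82e-03). The remaining 2 were the glutathione transferase genes Gsta2 and Gsta3. Serpinb2 is dim, and normexp correction gave -0.05 for it. In mutant smoke against room air 9 rose and 1, the P450 gene Cyp2s1, fell, against 6.06% and 10.2% of all kept probes.

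Between the smoke groups 3 of these 18 targets were lower in the mutants and 0 higher, against 3.75% and 2.07% of all kept probes. At an unadjusted p under 0.05 the counts were 7 and 0, against 12.5% and 8.76%. The median of the 18 was -0.18. The 3 that passed were Ptgs2 (-0.56 ± 0.14, limma adjusted p = 0.0391), Gsta3 (-0.48 ± 0.08, adjusted p = 7.64e-03) and Cyp2s1 (-0.32 ± 0.07, adjusted p = 0.0205). Gsta3 stood at 5.51 ± 0.15 (SD, n = 4) in room air; WT smoke gave 6.02 ± 0.08 and mutant smoke 5.55 ± 0.08, with the mutants against room air at 0.04 ± 0.08 (adjusted p = 0.785). The call of Ptgs2 held in 11 of 21 alternative settings. Gsta2, Gsta3 and Cyp2s1 are named here for their values and were not put through the alternative settings.

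Of the 4 genes that feed electrons to P450 enzymes or hydrolyse their epoxides, Ephx1 rose in WT smoke by 0.27 ± 0.06 (limma adjusted p = 0.022), against 1.98% of all kept probes higher. Ephx1, the microsomal epoxide hydrolase gene, and Por, the P450 reductase gene, were each lower in mutant than in WT smoke by -0.23 ± 0.06 (adjusted p = 0.0371 and 0.039), against 3.75% of all kept probes lower. These calls rested on few settings: that of Ephx1 held in 8 of 21 between the smoke groups and 14 of 21 in WT smoke, and that of Por in 3 of 21. Of 6 genes for enzymes of tryptophan metabolism, none passed in WT smoke. At an unadjusted p under 0.05 there were 2 higher, against 7.67% of all kept probes. Tdo2 was lower in mutant than in WT smoke (-0.61 ± 0.13, limma adjusted p = 0.0219), against 3.75% of all kept probes lower. Tdo2 encodes tryptophan dioxygenase and was dim; normexp correction gave 0.47, its call held in 16 of 21 settings, and its probes gave 0.46 and 1.80 for WT smoke against room air.

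**Figure D5:**
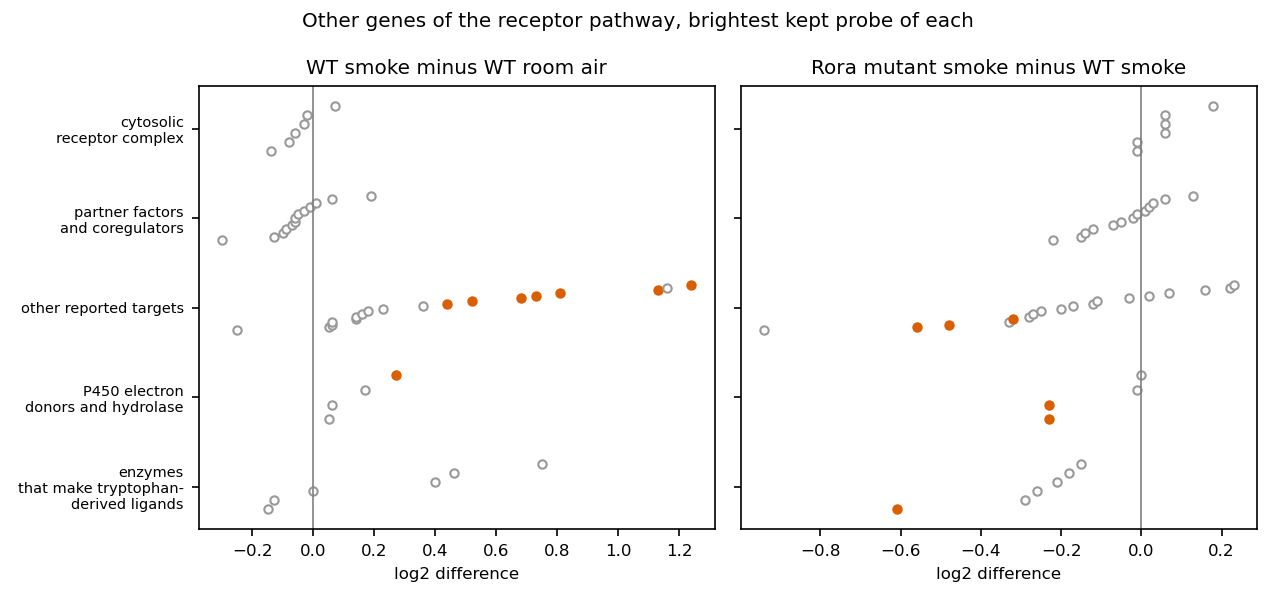
Log2 differences of the other pathway genes by list (1 point per gene, brightest kept probe; filled points passed at a limma adjusted p under 0.05), left WT smoke minus WT room air and right mutant smoke minus WT smoke. Filled points on the left are 7 other targets and Ephx1, all above 0; on the right they are 3 other targets, Ephx1, Por and Tdo2, all below 0.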

How the data were processed

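Whole lung RNA (100 ng per mouse, per the labels) was hybridised to Agilent mouse arrays of design 014868, scanned with Agilent Feature Extraction 9.5.3.1, per the submitters' processing notes. Per the file headers the processed signal is a linear intensity from which background was subtracted, not normalized between arrays, and signals not above background carry surrogate values. The raw spot mean and local background deposited in the same files are uncorrected intensities, and the deposited flags are other values of 0 or 1. The table of values that the authors deposited holds log2 intensity with a median of 6.80 on each array; it correlated with the log2 processed signal at 0.99952 or more and served as an alternative. Positions of probes come from the files and refer to mouse build mm8; no annotation of that build was used, so exons and introns are not given.

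Spots of a probe were averaged (43379 spots without controls, 41174 probes), outlier spots left out. The outlier spots among the named genes, at most 1 per array, were all replicate spots of Ahr, so each of their probes kept a value on every array. The filter asked for a signal well above background on 4 or more arrays, and for values on 3 or more arrays per group. No spot of the 9 genes was saturated. A single linear model with 3 group means was fitted to the 12 arrays (limma 3.58.1 lmFit and eBayes, R 4.3.3, version 1.17.8 of data.table), two-sided, with Benjamini-Hochberg adjustment over all kept probes, and was tested on simulated data. Lower bounds for a probe below background compare the brighter group's mean with the dimmest signal well above background. Promoter letters were searched in Python 3.11.15 and plots drawn with matplotlib 3.10.9.

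The 12 arrays lay on 3 slides of 4, each slide holding all 3 groups, so values within a slide rest on 1 or 2 mice per group. Alternatives were the probe filter, the normalization, normexp with an offset of 50, the authors' table, slide or replicate number as a block, the 8 arrays compared, the choice of probe, and leaving out each array. Besides the 9 genes, up to 5 genes per pathway list that passed somewhere, with the smallest adjusted p, and the 8 genes nearest to Cyp1a1 were named. The members and lists were chosen with earlier results of these data known.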

Additional observations from a re-analysis of the deposited data

Results flagged for a closer look

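In 36 sets of 4 arrays (12 kept probes in 3 groups), 2 sets held an array far from the other 3 by Dixon's ratio at its 95% critical value; chance gives about 1 such set in 20. Cyp1a1 read 3.88 on mutant smoke replicate 1, while the other mutant arrays lay between 4.60 and 4.69. Nqo1 read -0.98 on WT room air replicate 4, while the other room air arrays lay between -0.75 and -0.74.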

How the results depend on the processing

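In WT smoke against room air 5 of the 8 genes tested passed, and 3 did with normexp background correction; leaving out each array gave 5 to 5. In mutant smoke against room air 6 passed, and 3 with normexp correction; leaving out each array gave 6 to 6. Between the smoke groups 1 passed, 0 with normexp correction, 0 without the filter on dim probes, 0 with only the 8 arrays compared, and 2 (Aldh3a1 and Cyp1b1) with the mean of all kept probes of a gene; leaving out each array gave 0 to 1. Cyp1a1, Cyp1b1 and Nqo1 kept their direction and passed in both comparisons with room air in 22 of 22 alternatives. Between the smoke groups normexp correction gave 0.16 for Aldh3a1 and 0.26 for Cyp1b1 A_52_P297822, where the median of all probes was 0.15. It gave 0.05 for Arnt A_52_P577150 in mutant smoke against room air, where that median was 0.09. None of these passed. In WT smoke against room air the median was -0.11. Adding 50 to each signal compresses differences of dim probes by construction. With this correction the SE nevertheless rose from 0.23 to 0.45 for Ahrr and from 0.15 to 0.47 for Aldh3a1. For Cyp1a1 it was 0.24 in both settings. What raised the SEs was not tested. The mean of the Arnt probes was -0.25 in mutant smoke against room air (limma adjusted p = 0.0323), against 0.06 by the brightest. For the pathway lists, only up to 5 called genes per list were put through the alternatives. Among these, normexp correction alone turned the direction of a call. It did so for Serpinb2 in WT smoke against room air, Tdo2 between the smoke groups and Esr1 in mutant smoke against room air.

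With the replicate number as a block, 5, 0 and 6 genes passed in WT smoke against room air, mutant against WT smoke and mutant smoke against room air; Aldh3a1 then had an adjusted p of 0.0553 between the smoke groups. Deviations of arrays of the same number correlated at r -0.08 to 0.20, over 0.1 in 4 of 12 pairs. Arrays of other numbers and slides gave -0.20 to 0.21. Of the 12 arrays 6 correlated best with their own number. Replicates 1 to 3 of each group also shared a slide by number, so number and slide cannot be told apart there. These values do not settle whether the numbers pair the mice, and the main model took no pairing.

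Counts of all probes moved more. Of kept probes 598 were higher and 632 lower in WT smoke than in room air, against 37 and 12 with normexp correction, 394 and 345 without the filter, and 436 and 423 with the replicate block. Between the smoke groups 626 were higher and 1133 lower in mutants, against 10 and 16, and 343 and 574, and against 404 and 626 with only the 8 arrays compared, and 468 and 739 under a slide block. Mutant smoke against room air gave 1829 and 3077, against 73 and 89 with normexp correction. Leaving out each array gave 359 to 619 higher and 336 to 652 lower, 329 to 616 and 424 to 1334, and 1150 to 1857 and 2030 to 3032, in that order. With 4 arrays per group, precision is limited by the number of arrays. The probes of Ahrr and Aldh3a1 and 3 Arnt probes were dim, but in the main setting the SE did not follow brightness. It was 0.24 for the bright Cyp1a1 and 0.07 for the dim Arnt probe A_51_P494196.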
